A study of Homo sapiens with 8 samples.

Results

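Cadherins and protocadherins are the adhesion genes described here, read through H3K9me3 at their promoters in SiHa cells, a human cervical cancer line of squamous origin. Members were the promoter windows labelled with a cadherin (CDH), cadherin-related (CDHR), protocadherin (PCDH), desmocollin (DSC), desmoglein (DSG), FAT or CELSR symbol, with CDH1 and CDH2 left out. The rule found 67 genes of 24256 named genes, and 147 windows of 38157. Each gene was represented by its window with the most reads over all libraries. This sum includes the H3K9me3 reads, so among the windows of a gene the choice favours one high in the mark. These 67 genes were 16 clustered protocadherins, 13 other protocadherins, 15 classical cadherins, 7 desmosomal cadherins, 9 atypical and cadherin-related genes, and 7 FAT and CELSR genes. No window was labelled CDH6 or PCDHGC3. The gamma protocadherin windows all carry the label PCDHGA1 and were not assigned to isoforms, so a PCDHGC3 promoter may be among them.

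SiHa cells were placed on a porous transwell membrane, and 10 h later the cells that had crossed it (migrated) and those that had not (non-migrated) were scraped off apart. Each fraction gave a library of chromatin pulled down with an antibody to H3K9me3 and an input library without antibody, in 2 paired replicate sets. The groups were therefore H3K9me3 of migrated cells, input of migrated cells, H3K9me3 of non-migrated cells and input of non-migrated cells, with n = 2 libraries each. All come from 1 untreated cell line in serum-containing medium, and the library kit was the same for both fractions of a set and another in each set. The labels call set 2 a second biological replicate.

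Cadherins are calcium-dependent adhesion receptors whose extracellular domains bind those of a neighbouring cell. Classical cadherins link through catenins to actin, desmocollins and desmogleins link through plakoglobin and plakophilins to keratin filaments, and FAT and CELSR proteins act in planar cell polarity. The clustered protocadherins lie in alpha, beta and gamma arrays in tandem, each variable exon with a promoter of its own, and neurons choose among these promoters with the help of CTCF and cohesin. H3K9me3 (trimethylated lysine of the histone H3 tail) marks silenced chromatin, is written by SUV39H1, SETDB1 and related enzymes, and is known to cover parts of the protocadherin arrays in neurons of the mouse.

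The promoter windows of set 1 held 88028 H3K9me3 and 684949 input reads in migrated cells, against 164766 and 388191 in non-migrated cells. Set 2 held 984835 and 1679874 in migrated cells, against 1137376 and 1729061 in non-migrated cells. The median window held 1 H3K9me3 read in migrated cells of set 1, so set 1 values of single windows are imprecise. In the mean of both fractions they still count about as much as set 2, because the model fits a term for the set. Values below are log2 of H3K9me3 over input with limma's SE, centred by the trimmed mean of M values (TMM) and averaged over both fractions unless stated. Enriched and lower mean an adjusted p under 0.05 (limma, Benjamini-Hochberg over 36440 tested windows). On this scale the median tested window lay at -0.35, and the scale has no absolute zero. Of the 67 genes, 66 passed the filter on low counts. The exception, PCDH11Y, is a near-identical copy of PCDH11X and held 1 read in all libraries together.

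H3K9me3 was found over many of these promoters, in both fractions. Of 66 tested genes, 30 were enriched and 8 were lower, where 15.8% of all tested windows were enriched and 35.2% lower. With 1 window for each of 23170 named genes, those shares were 18.3% and 32.3%. These calls depend on the scaling: with the constants of the deposited values 1 member was enriched and 17 lower, as were 340 and 19685 of 36440 windows. The median member stood at 0.64. Averaged over the fractions, all 30 enriched members lay above 0 in both sets, with a median of 1.06 in set 1 and 1.33 in set 2. They were called from these same sets, so this is no independent support. Of all 66 tested members, 38 lay above 0 in both sets and 14 below 0 in both. Within migrated cells 23 members were enriched and 9 lower, where 12.9% and 28.3% of all windows were. Within non-migrated cells 16 were enriched and 6 lower, where 8.41% and 23.6% of all windows were. Without the set 1 input of migrated cells, 15 members were enriched in the mean, 9 within migrated cells and 9 within non-migrated cells. The counts within migrated cells were also lower without set 2 of migrated cells (7 enriched without its H3K9me3 library, and 10 enriched and 5 lower without its input). Within non-migrated cells 34 were enriched without the set 1 and 26 without the set 2 H3K9me3 library of migrated cells, 10 without set 1 H3K9me3, 8 without set 1 input and 1 without set 2 input of non-migrated cells, and 10 with no replicate block. There, 3 and 2 members were lower without the set 1 H3K9me3 and the set 2 input library of non-migrated cells. The counts over all windows moved too, and in the mean fewer of all windows were enriched without the set 1 input of migrated cells. Within non-migrated cells 3064 windows were enriched with all libraries, against 7186 and 5002 without the set 1 and set 2 H3K9me3 libraries of migrated cells and 566 without the set 2 input of non-migrated cells. Within migrated cells 4691 windows were enriched with all libraries, against 2107 without the set 1 input, 2470 without the set 2 H3K9me3 library and 2382 without the set 2 input of migrated cells. Input reads per window were fewer in some subfamilies: over both set 2 inputs the median gene held 59.5 reads among clustered protocadherins and 151 among classical cadherins.

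The subfamilies are given side by side, with no test between them, where 15.8% of all tested windows were enriched and 35.2% lower. Clustered protocadherins had 12 enriched and 0 lower of 16, with a median of 1.05. Classical cadherins had 8 enriched and 2 lower of 15 (median 0.71), desmosomal cadherins 3 and 0 of 7 (median 0.81), and other protocadherins 4 and 1 of 12 (median 0.57). FAT and CELSR genes had 2 enriched and 2 lower of 7 (median -0.03). Atypical and cadherin-related genes had 1 enriched and 3 lower of 9, or 11.1% and 33.3%, near the shares of all windows. Their median of -0.57 was below that of all windows. Without the set 1 input of migrated cells, 6 clustered protocadherins, 4 classical, 1 desmosomal, 0 atypical and 0 FAT and CELSR genes were enriched. The small counts also turned on other libraries: 1 desmosomal, 0 atypical and 0 FAT and CELSR genes were enriched without the set 1 input of non-migrated cells. FAT and CELSR genes had 0 enriched without the set 2 H3K9me3 library of migrated cells, 1 without the set 1 H3K9me3 library and 1 without the set 2 input of non-migrated cells, which also left 1 lower. Atypical genes had 2 enriched without the set 1 H3K9me3 library of migrated cells and 0 without the set 2 H3K9me3 library of non-migrated cells. Other protocadherins had 7 enriched without the set 1 and 3 lower without the set 2 H3K9me3 library of migrated cells. The position of 0 depends on the scaling: with the constants of the deposited values the members' median was -0.33, and with library sizes set by ribosomal and oxidative phosphorylation promoters it was 1.43. Relative to the median of all windows the members stood at 0.99 here, and at 0.97 and 0.98 under those scalings. With 1 library left out they stood at 0.72 to 1.10, and at 0.86 without the set 1 input of migrated cells.

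**Figure D1:**
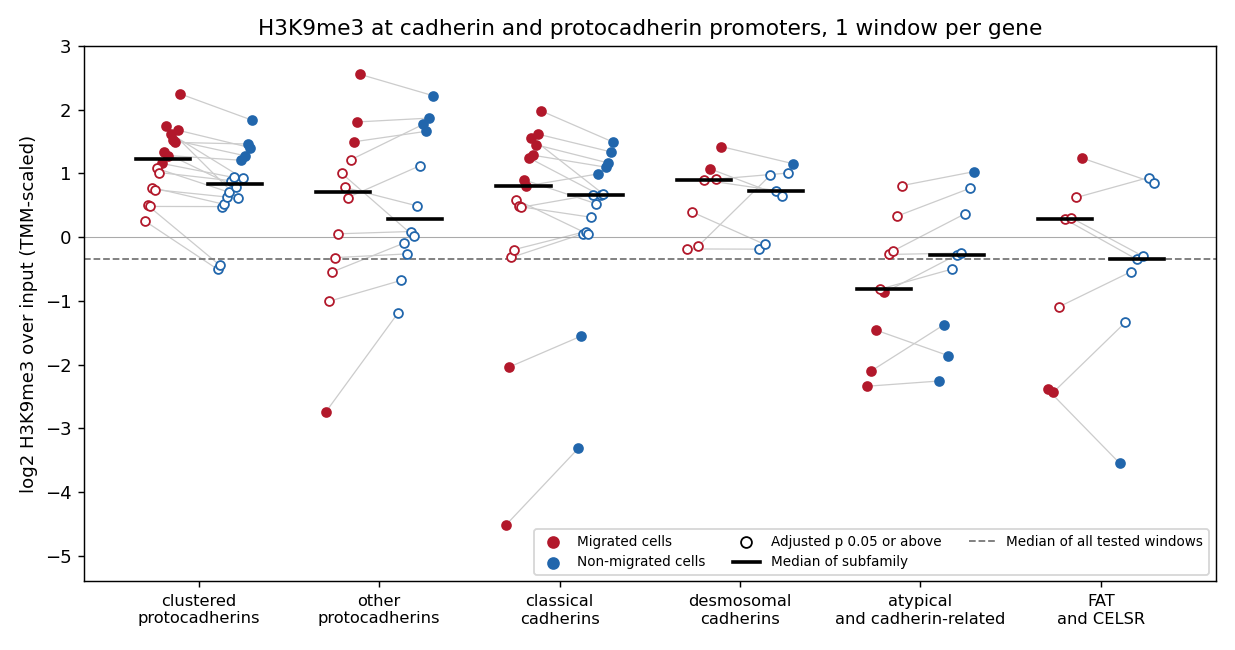
Log2 H3K9me3 over input (vertical axis) of 66 genes in 6 subfamilies, with migrated cells left of non-migrated cells and a grey line joining each gene. Filled points passed an adjusted p of 0.05, bars are subfamily medians, and the dashed line is the median of all tested windows at -0.35. Clustered protocadherins lie mostly above 0 in both fractions, and the lowest point is CDH24.

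The clustered protocadherins form 1 block on chromosome 5 (hg19, chr5:140163876-140868908) of 705 kb with 51 tested windows. Of these windows 31 were enriched and 1 was lower, with a median of 0.96. The alpha array had 7 enriched of 16 windows (median 0.72), the beta array 10 of 16 (median 0.92) and the gamma array 14 of 19 (median 1.14). Alpha and gamma windows all carry the labels PCDHA1 and PCDHGA1, because each variable exon is spliced to shared exons, so single isoforms are given here by position. Outside the block, none of the 37 windows of non-member genes within 600 kb was enriched and 31 were lower, with a median of -1.62. The members PCDH1 and PCDH12 also lie in this flank, are not in that count and are given below. That flank includes HBEGF (a growth factor gene, -2.75), HDAC3 (a histone deacetylase gene with windows at -2.31 and -2.46) and the DIAPH1 start at -3.23. Inside the block, the SLC25A2 promoter (a mitochondrial carrier gene between the beta and gamma arrays) was 4.81-fold over input (log2 2.27). TAF7, a general transcription factor gene beside it, was at 0.61 and did not pass. These neighbours were picked after their values were seen.

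**Figure D2:**
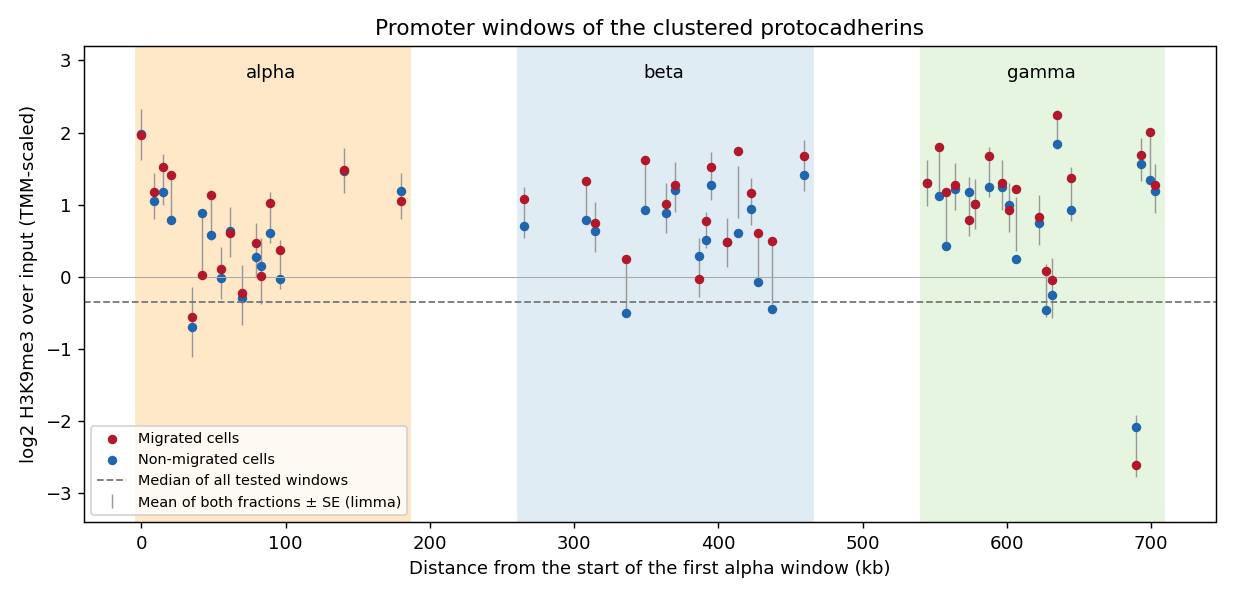
Log2 H3K9me3 over input of 51 promoter windows (vertical axis) against distance along the protocadherin block in kb (horizontal axis), with migrated and non-migrated cells as separate points and a bar of ± 1 SE about the mean of both fractions. Alpha, beta and gamma windows lie mostly above the dashed median of all windows at -0.35, and 1 gamma window lies at -2.34.

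Strong enrichment was found in each array. The PCDHGA1 window at chr5:140798762-140800862 held 125 and 157 RPM (reads in each 1000000 promoter reads of the library) of H3K9me3 in migrated cells (set 1 and set 2), against 21.9 and 32.7 for input. In non-migrated cells it held 97.1 and 135, against 28.3 and 33.0. Every H3K9me3 library was above every input library, at 2.04 ± 0.27 (adjusted p = 4.80e-07). The first alpha window (chr5:140163876-140165976) was at 1.97 ± 0.35, and the alpha window with the most reads (chr5:140304302-140306402) at 1.47 ± 0.31.

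A single window in the gamma array went the other way. The PCDHGA1-labelled window at chr5:140853580-140855680 held 0 and 5 H3K9me3 reads in migrated cells (set 1 and set 2), against 27 and 45 input reads, and 1 and 5 in non-migrated cells, against 11 and 34. Its value was -2.34 ± 0.43 (adjusted p = 3.89e-05). The next window downstream was enriched at 1.62 ± 0.30, and the next one upstream at 1.14 ± 0.37. It was singled out after its value was seen.

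Among the beta genes, which are single-exon genes each with its own promoter, PCDHB15 was highest at 1.54 ± 0.35 (2.91-fold). PCDHB15 held 22.7 and 83.3 RPM of H3K9me3 in migrated cells, against 23.4 and 15.5 for input. In non-migrated cells it held 72.8 and 59.8, against 25.8 and 13.3. The set 1 library of migrated cells, with 2 reads here, is thus the one that did not exceed its input. PCDHB8 (1.40), PCDHB5 (1.27), PCDHB17 (1.24) and PCDHB2 (1.06) were enriched too. PCDHB14 at 0.03 ± 0.41 and PCDHB4 at -0.13 ± 0.38 were the lowest beta genes and did not pass. PCDHB4 was named after its value was seen.

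Protocadherin promoters are known to share a conserved element around the letters CGCT, at which CTCF binds. The sequences below show it in beta promoters that were enriched and in some that were not. They are the 250 bases before each RefSeq start (GRCh38.p14, all in 5′ to 3′ direction of the gene), matched by symbol and not by position, since the windows are in hg19. Capitals mark GGTGGCGCT.
PCDHB15 (enriched, 1.54): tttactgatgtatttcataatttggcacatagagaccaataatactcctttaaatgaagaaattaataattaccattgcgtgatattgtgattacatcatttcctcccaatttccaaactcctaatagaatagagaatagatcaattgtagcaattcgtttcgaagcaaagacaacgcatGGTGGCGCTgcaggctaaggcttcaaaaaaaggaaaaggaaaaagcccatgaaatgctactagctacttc
PCDHB5 (enriched, 1.27): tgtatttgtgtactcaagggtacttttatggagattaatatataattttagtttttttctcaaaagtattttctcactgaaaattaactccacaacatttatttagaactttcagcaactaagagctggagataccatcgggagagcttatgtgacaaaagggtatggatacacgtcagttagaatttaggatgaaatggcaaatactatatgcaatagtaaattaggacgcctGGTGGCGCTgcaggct
PCDHB2 (enriched, 1.06): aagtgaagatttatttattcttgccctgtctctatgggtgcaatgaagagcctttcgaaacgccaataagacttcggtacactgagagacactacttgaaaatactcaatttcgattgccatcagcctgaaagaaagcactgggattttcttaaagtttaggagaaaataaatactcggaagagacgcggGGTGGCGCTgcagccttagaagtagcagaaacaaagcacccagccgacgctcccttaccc
PCDHB14 (not called, 0.03): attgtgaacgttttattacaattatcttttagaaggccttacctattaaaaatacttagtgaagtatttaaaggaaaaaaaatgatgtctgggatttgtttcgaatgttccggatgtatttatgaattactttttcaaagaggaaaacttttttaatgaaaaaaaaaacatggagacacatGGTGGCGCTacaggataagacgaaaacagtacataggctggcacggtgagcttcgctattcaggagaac
PCDHB4 (not called, -0.13): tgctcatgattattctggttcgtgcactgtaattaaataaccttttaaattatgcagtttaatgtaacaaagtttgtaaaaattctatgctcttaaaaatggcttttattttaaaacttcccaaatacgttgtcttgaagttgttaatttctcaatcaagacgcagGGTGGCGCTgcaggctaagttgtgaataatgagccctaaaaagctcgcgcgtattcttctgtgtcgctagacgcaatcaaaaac
Promoters outside the block are shown for contrast, the enriched PCDH17 on chromosome 13 and the lower PCDH1, which lies on chromosome 5 beyond the block.
PCDH17 (enriched, 1.58): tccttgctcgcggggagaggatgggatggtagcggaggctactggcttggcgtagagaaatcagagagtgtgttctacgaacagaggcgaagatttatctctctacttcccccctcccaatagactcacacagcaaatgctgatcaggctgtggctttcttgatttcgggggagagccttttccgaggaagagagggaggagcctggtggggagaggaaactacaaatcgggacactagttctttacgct
PCDH1 (lower, -1.97): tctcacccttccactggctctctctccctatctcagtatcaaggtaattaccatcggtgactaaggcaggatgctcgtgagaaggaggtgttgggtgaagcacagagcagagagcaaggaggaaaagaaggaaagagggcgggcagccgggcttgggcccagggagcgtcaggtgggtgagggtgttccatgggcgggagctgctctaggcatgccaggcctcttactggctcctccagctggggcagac
The letters GGTGGCGCT, on either strand, were chosen after these sequences were seen. They stood in 12 of 14 RefSeq promoters with a PCDHB symbol, and in 0.41% of 35116 RefSeq promoters of the same length. Among clustered protocadherins with 1 RefSeq start, they were found in 5 of 9 enriched genes and in 4 of 4 that were not called. PCDHA1 and PCDHGA1 are among the enriched genes without them. Their calls come from 1 window of the 16 and 19 under each label, so sequence and call may belong to different promoters. PCDHA and PCDHG promoters held this spelling in 0 of 13 and 0 of 25, while the shorter CGCT, which overlaps it, stood in 12 and 25 of them and in 64.8% of all promoters. In the 5 beta promoters shown, the element began 16 to 84 bases before the start.

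Other protocadherins, many of which act in neural circuit formation, ranged from 2.39 to -1.97. PCDH11X on the X chromosome was highest at 2.39 ± 0.43, with 22.7 and 70.1 RPM of H3K9me3 in migrated cells against 4.38 and 10.1 for input. Non-migrated cells held 18.2 and 65.9 against 2.58 and 12.1, so every H3K9me3 library was above every input library. Few reads map to it (38 input reads in set 2), and reads shared with PCDH11Y could be counted under either copy. PCDH15, a tip-link protein of hair cells, was at 1.84 ± 0.33, and 7 of its 10 windows were enriched. PCDH17 was at 1.58 ± 0.35, and PCDH18 at 1.49 ± 0.42 with 19 input reads in set 2.

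PCDH1, which is expressed in airway epithelium and skin, was the 1 lower member of the group at -1.97 ± 0.43. It held 0 and 4.06 RPM of H3K9me3 in migrated cells, against 24.8 and 46.4 for input. In non-migrated cells it held 30.3 and 7.91, against 18.0 and 46.8. The set 1 library of non-migrated cells, with 5 reads, was above its input and the other H3K9me3 libraries were below theirs. PCDH8 (0.51), PCDH9 (0.64), PCDH20 (0.87), PCDH10 (-0.32), PCDH19 (-0.29) and PCDH7 (-0.84) did not pass.

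Among classical cadherins some were enriched, a pair lay far below input, and the rest lay between and were not called. CDH18, a cadherin of the nervous system, was highest at 1.74 ± 0.23 (3.34-fold, adjusted p = 4.58e-07). It held 114 and 226 RPM of H3K9me3 in migrated cells, against 51.1 and 45.8 for input, and 170 and 159 in non-migrated cells, against 46.4 and 46.8. All H3K9me3 libraries were above all input libraries. That window lies on the strand opposite to the gene, and the CDH18 window on the gene's strand was at 0.92 ± 0.23, also enriched. CDH7 (1.48), CDH11 (1.31), CDH12 (1.19), CDH20 (1.12) and CDH4 (0.95) were among the 8 enriched. CDH11, a mesenchymal cadherin, held 56.8 and 93.4 RPM of H3K9me3 in migrated cells against 13.1 and 34.5 for input, and 36.4 and 98.5 in non-migrated cells against 23.2 and 37.0.

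CDH24 and CDH15 were lower. CDH24 held 0 and 0 H3K9me3 reads in migrated cells, against 23 and 69 input reads, and 0 and 5 in non-migrated cells, against 8 and 82. Its fitted value, -3.91 ± 0.51, depends on the 0.5 reads added to every count. CDH15, a muscle cadherin, was at -1.80 ± 0.33 and below input in every set and fraction. CDH3, the P-cadherin of basal epithelial layers, was at 0.32 ± 0.22, and CDH5, the endothelial VE-cadherin, at -0.05 ± 0.27, and neither passed. CDH5 turned positive with library sizes set by ribosomal and oxidative phosphorylation promoters (0.75).

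**Figure D3:**
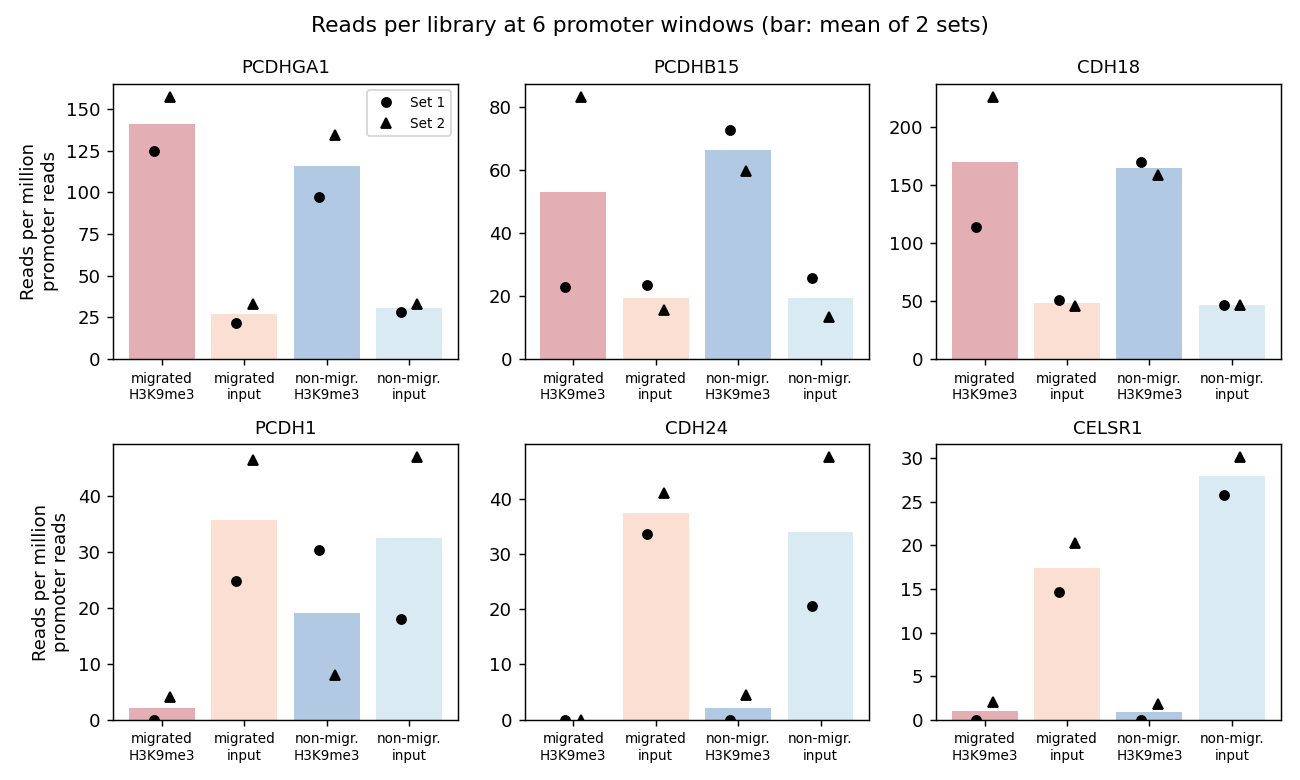
RPM (reads scaled to 1000000 promoter reads) at 6 windows, with bars for the mean of 2 libraries and points for set 1 (circles) and set 2 (triangles), and H3K9me3 left of input in each fraction. PCDHGA1 and CDH18 are above input in every library, the set 1 migrated library of PCDHB15 is not, and CDH24 and CELSR1 held few or no H3K9me3 reads.

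The desmosomal cadherins of the chromosome 18 array hold stratified epithelia together. DSC3 (1.29 ± 0.34), DSG3 (0.96 ± 0.36), both of basal keratinocytes, and DSC1 of upper layers (0.86 ± 0.34) were enriched. DSC3 held 45.4 and 72.1 RPM of H3K9me3 in migrated cells, against 14.6 and 28.0 for input. In non-migrated cells it held 54.6 and 61.5, against 28.3 and 23.7, so that no H3K9me3 library overlapped an input library. DSC2 (0.14 ± 0.36) and DSG2 (-0.19 ± 0.42), the pair found in simple epithelia, did not pass, nor did DSG4 (0.42), a desmoglein of hair.

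Atypical and cadherin-related genes had the lowest subfamily median. CDHR4 (-2.30 ± 0.44), CDH13 (-1.74 ± 0.36) and CDHR2, a brush border protocadherin (-1.66 ± 0.43), were lower. CDHR5, its brush border partner, was the enriched one at 0.92 ± 0.31. CDH13, the GPI-anchored T-cadherin, held 22.7 and 16.2 RPM of H3K9me3 in migrated cells, against 68.6 and 80.4 for input, and 12.1 and 27.3 in non-migrated cells, against 33.5 and 68.8. The groups did not overlap. CDH16, the kidney cadherin (-0.57), and CDH23, another tip-link protein (-0.26), did not pass.

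FAT and CELSR genes held members at both ends. CELSR1, a core planar polarity gene of epithelia, was lowest at -2.97 ± 0.48, with 0 and 2 H3K9me3 reads in migrated cells against 10 and 34 input reads, and 0 and 2 in non-migrated cells against 10 and 52. FAT1, a giant cadherin often mutated in squamous carcinomas, was at -1.88 ± 0.48. FAT3 (1.05 ± 0.33) and FAT2 (0.78 ± 0.33, limma adjusted p = 0.04996) were enriched. The FAT3 value is that of the last of its 4 windows, on the minus strand. In genomic order its other windows were at 0.02 and 0.33, not called, and at 0.78, enriched. The first of them is on the plus strand. FAT2, an epithelial FAT gene, held 34.1 and 43.7 RPM of H3K9me3 in migrated cells against 29.2 and 26.8 for input, and 48.6 and 37.8 in non-migrated cells against 15.5 and 20.2. FAT4 (-0.03), CELSR2 (-0.82) and CELSR3 (0.01) did not pass.

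The windows of a gene could differ in call, as genes picked after their values were seen show. The first CDH13 window, on the plus strand, was lower, while its 3 other windows (0.73, 1.12 and 1.05) were enriched. CELSR3 was at 0.01 in the opposite-strand window used above and at -2.65 ± 0.39 in the window on its own strand, which overlaps it. PCDH12 was at 0.07 in its opposite-strand window and at -1.80 ± 0.44 in its own-strand window. CDH23 had 1 lower window of 4 (-2.96). CDH4 was at 1.76 ± 0.27 in its own-strand window, above the 0.95 of the opposite-strand window used. Over all 143 tested windows of the members, 63 were enriched and 13 lower, where 15.8% and 35.2% of all windows of the series were. Of the windows on the strand of the RefSeq start 47 of 91 were enriched, against 6 of 25 on the opposite strand. Genes without a RefSeq promoter had 10 of 27. These groups were not matched for subfamily, and clustered protocadherins held 31 of the 63 enriched windows. Shares by strand over all windows of the series were not computed.

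**Figure D4:**
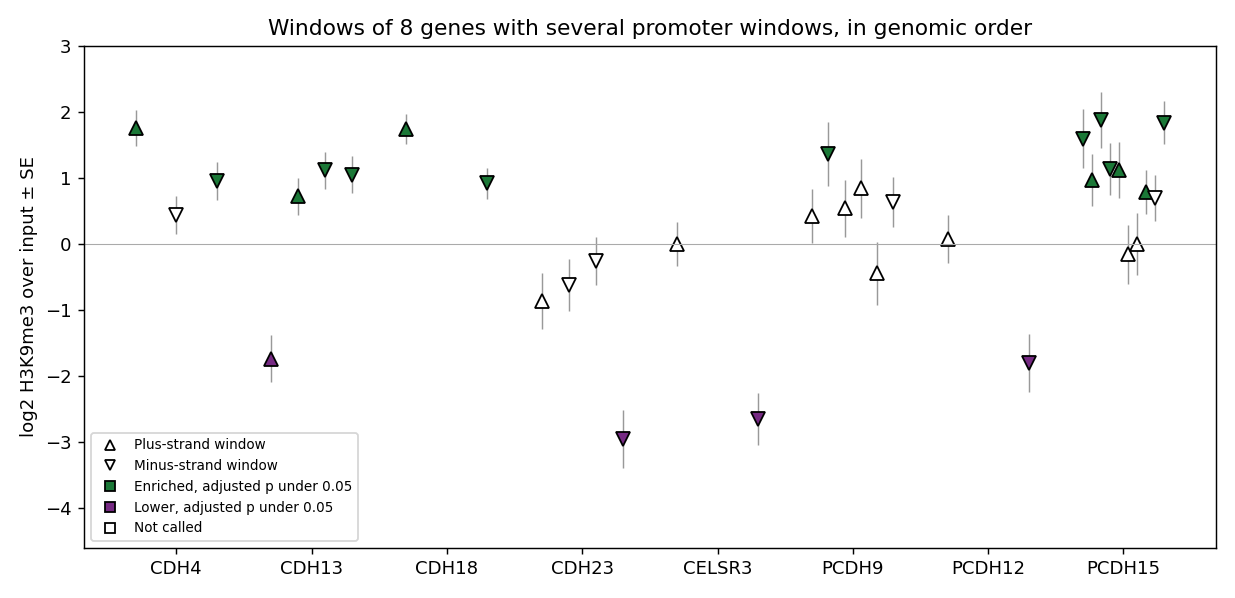
Log2 H3K9me3 over input ± SE (vertical axis) of every tested window of 8 genes, in genomic order, with triangles up for the plus strand and down for the minus strand. CDH13, CELSR3 and PCDH12 each have a lower window beside others that are enriched or not called, and 7 of 10 PCDH15 windows are enriched.

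Base composition differed among the matched promoters. Of the 67 genes, 48 matched a RefSeq promoter, and 23 had 1 RefSeq start and 1 window on its strand. In these the 250 bases before the start held a median of 5 CpG in 11 enriched genes, 12 in 10 genes that were not called and 4 in 2 lower genes. All RefSeq promoters had a median of 11. The part of CpG content in the H3K9me3 values was not tested.

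Genes that work with the cadherins were read from lists of partners, beside 15.8% of all windows enriched and 35.2% lower. These lists are small, and their counts are given as a description. Catenins and plaque proteins had 3 enriched and 3 lower of 14 tested. CTNND2 (1.63), CTNNA3 (1.32) and CTNNA2 (1.13), the catenins of neural or restricted expression, were enriched, the last pair in opposite-strand windows. PKP1, the plakophilin of stratified epithelia (-3.15), PERP, a desmosomal membrane protein (-2.08), and VCL, vinculin (-1.19), were lower. The general catenins CTNNB1 (-0.05) and CTNNA1 (-0.59), and the plaque genes JUP (-0.55) and DSP (-0.40), did not pass. Among nectins, the immunoglobulin-type junction receptors, 0 were enriched and 3 lower of 4. Of 5 other cadherin superfamily genes, DCHS1, the ligand of FAT4, was enriched (1.22) and CLSTN1 lower (-3.32).

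Planar polarity and FAT pathway genes had 2 enriched and 4 lower of 9, beside 15.8% and 35.2% of all windows. PRICKLE2 (1.20) and ANKS6 (1.16) were enriched, and FZD3 (-3.01), DVL2 (-2.86) and FJX1 (-2.73) were the furthest below. Among regulators of the protocadherin arrays, 4 were enriched and 6 lower of 16, beside the same shares of all windows. These counts too are a description. STAG1, a cohesin subunit, was at 1.58, the H3K9 methyltransferase gene EHMT1 at 1.29, and LRIF1, an HP1-binding partner of SMCHD1, at 1.28. The cohesin release factor WAPAL (-2.79), the cohesin subunit SMC1A (-2.46, opposite-strand window) and TRIM28, the corepressor that brings SETDB1 to chromatin (-2.17), were lower. CTCF itself (-0.15, opposite-strand window) did not pass.

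No member passed the test of the change between migrated and non-migrated cells. The input-corrected change passed in 0 of 66 genes, and the background was 0.0% in each direction. At an unadjusted p under 0.05, limma gave 0 members and 1283 of all windows. A quasi-Poisson model gave 0 calls at an adjusted p under 0.05, and 1757 of all windows at an unadjusted p under 0.05. The smallest adjusted p of a member was 0.999. The median member changed by -0.36 in set 1 and 0.25 in set 2, so the sets differed in sign. Of 66 genes, 15 were higher in migrated cells in both sets and 13 lower in both, or 22.7% and 19.7%, where 23.9% and 26.6% of all windows were.

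Changes with 1 sign in both sets are given as values. Among genes with at least 20 H3K9me3 reads over both set 2 libraries, the 3 largest in each direction were the following. PCDH8 (0.99 ± 0.55), PCDHB14 (0.94 ± 0.74) and FAT4 (0.63 ± 0.60) had changes above 0 in migrated cells, and DSG4 (-1.11 ± 0.59), CDH13 (-0.72 ± 0.56) and CDH16 (-0.59 ± 0.37) below 0. With fewer such reads (13, 10 and 4), PCDH1 (-1.55 ± 0.79), FAT1 (-1.10 ± 0.91) and CELSR1 (1.16 ± 0.92) had larger changes. DSG4 held 11.4 and 31.5 RPM of H3K9me3 in migrated cells, against 21.9 and 20.8 for input, and 12.1 and 43.1 in non-migrated cells, against 15.5 and 10.4. The H3K9me3 values of the fractions overlapped. Without the set 2 H3K9me3 library of migrated cells, changes were -3.50 for CDH19, -3.13 for PCDH10 and -2.80 for PCDH1. Without that of non-migrated cells they were -3.43 for CDH19 and -3.07 for PCDH10. Both fits take the H3K9me3 difference from the same set 1 libraries, so they are not independent. In set 2 the changes of CDH19 (0.56) and PCDH10 (0.64) had the other sign, while that of PCDH1 was -0.74. Each of these genes held 0 H3K9me3 reads in migrated cells of set 1. In these fits the group that lost a library rests on its set 1 library of 88028 or 164766 reads, assumed to vary like the other groups, and the genes were named after their values were seen.

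Pooling reads over a subfamily reduces counting error. The 16 clustered protocadherin windows held 71 and 997 H3K9me3 reads in migrated cells, or 0.0807% (Wilson 95% interval 0.0640 to 0.102) and 0.101% (0.0951 to 0.108) of promoter reads. Non-migrated cells held 161 and 969, or 0.0977% (0.0837 to 0.114) and 0.0852% (0.0800 to 0.0907). Over input, migrated minus non-migrated log2 share was 0.11 in set 1 and 0.24 in set 2. Gene by gene the sets differed in sign: the median change of these genes was -0.32 in set 1, with 5 of 16 higher in migrated cells, and 0.35 in set 2, with 15 of 16 higher. On the pooled measure of read shares, all windows called enriched stood at 0.16 in set 1 and 0.19 in set 2. Atypical and cadherin-related genes stood at -0.32 and -0.42, and classical cadherins at -0.42 and 0.22 with a sign that differed between sets. The 8 members called lower stood at -0.79 and -0.62, where all windows called lower stood at -0.24 and -0.41. These 8 held 5 and 68 H3K9me3 reads in migrated cells (set 1 and set 2) and 13 and 127 in non-migrated cells. Their set 1 intervals overlapped, at 0.00243 to 0.0133% in migrated and 0.00461 to 0.0135% in non-migrated cells. Intervals cover counting error only.

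**Figure D5:**
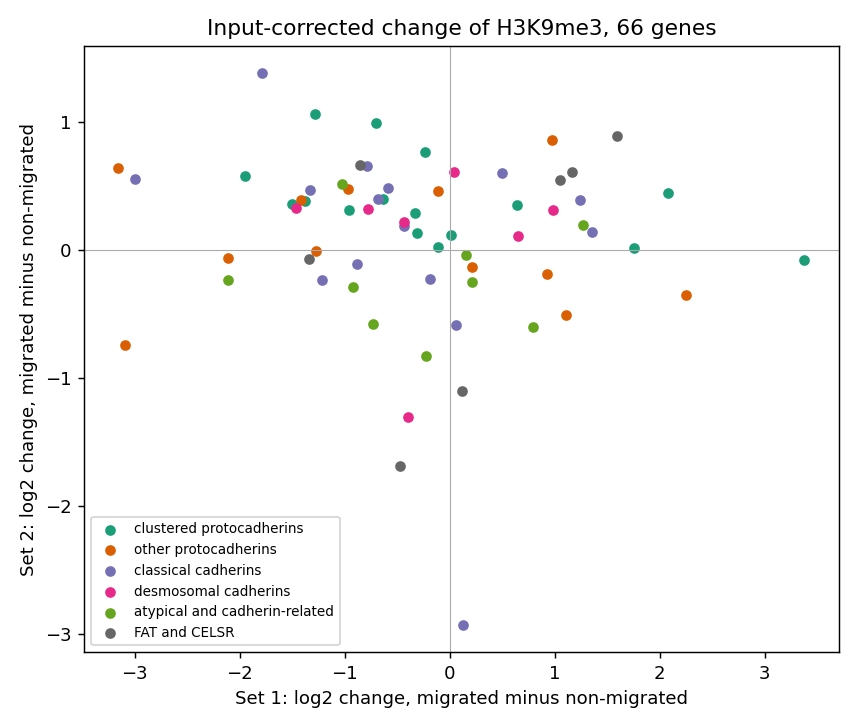
Input-corrected log2 change of H3K9me3, migrated minus non-migrated cells, of 66 genes in set 1 (horizontal axis) and set 2 (vertical axis), coloured by subfamily. Points fall in all quadrants, with 15 genes higher in migrated cells in both sets and 13 lower in both.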

How the data were processed

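H3K9me3 ChIP and input libraries of migrated and non-migrated SiHa cells (8 libraries, 2 per group, 1 per replicate set) were analysed at promoter windows in hg19, of which 36796 spanned 2100 bases. For the set 1 H3K9me3 library of migrated cells, the replicate number in the title was followed where the description gives another. The authors deposited log2 values per window, as the headers of the files state. Bowtie2 2.2.9, SAMtools 1.3 and FastQC 0.11.5 are named in the submitters' processing notes, and the labels' protocols state that set 1 was deduplicated. For the program that counted reads, the name was not given in the sources used here.

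In every library the deposited log2 values were those of whole reads, moved by a constant of the library, and windows with no read held log2 of 0.9 moved likewise. After the constants were removed, 100% of values were whole within 0.01. The test planned for such reads was used: limma 3.58.1 in R 4.3.3 on log2 of reads plus 0.5 per TMM-scaled library size (30% of ratios and 5% of levels trimmed), each value weighted by the spread predicted for its level (voom). Windows needed the level of 10 reads in a library of median size in at least 2 libraries and 15 reads in total, which left 36440. The model held the antibody, the fraction, their product, the set and set by antibody, with 2 residual and 33.1 prior degrees of freedom. Each contrast was fitted as its own coefficient, and the fit was tested on simulated data. Deviations of the paired libraries from their group means correlated at 0.147 for H3K9me3 and 0.469 for input across windows, and the series describes the sets as paired.

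Read shares carry Wilson 95% intervals. Scaling, filters, weights, prior count, model, block, window choice and single libraries were varied. Members, gene lists and tests were chosen with earlier results of these data known. Named genes were up to 6 enriched and 6 lower members per subfamily with at least 20 input reads in set 2, the 3 largest changes per direction with 1 sign in both sets and at least 20 H3K9me3 reads in set 2, and a fixed list whatever the values. Partners were named up to 3 per direction and list. Windows carry the name of an overlapping gene, and 6 of the chosen windows lie opposite to the RefSeq strand. For 19 genes without a RefSeq promoter, PCDH10 among them, the strand of the chosen window was not checked. Promoter sequences are from RefSeq on GRCh38.p14, and no coordinates were converted. Python 3.11.15, pandas 2.3.3, numpy 2.4.6, scipy 1.17.1 and matplotlib 3.10.9 were used.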

Additional observations from a re-analysis of the deposited data

Results flagged for a closer look

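PCDHB14 lay above 0 in both sets of migrated cells (1.01 and 0.29) and below 0 in both sets of non-migrated cells (-1.07 and -0.16), on the log2 scale of H3K9me3 over input. The opposite signs of the fractions flagged it. The test of the difference itself did not pass: the input-corrected change was 0.94 ± 0.74 (limma, adjusted p = 0.999), higher in migrated cells in 2 of 2 sets. The window held 3 and 15 H3K9me3 reads in migrated cells (set 1 and set 2) and 2 and 14 in non-migrated cells. The sign of each value depends on where the scaling puts 0.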

How the results depend on the processing

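Counts below are members enriched or lower in the mean of both fractions unless stated. The scaling moved them most. With the deposited constants, which shift the median of all windows by -0.95, 1 member was enriched and 17 lower (migrated cells 0 and 16, non-migrated cells 0 enriched), with 340 and 19685 of all 36440 windows. By subfamily, 0 clustered, classical, desmosomal, atypical, and FAT and CELSR genes and 1 other protocadherin were enriched, and 1 clustered, 6 atypical and 4 other protocadherin genes lower. CDH4 (-0.00146), CDHR5 (-0.00279), DSC1 (-0.0601) and FAT2 (-0.17) turned negative. With ribosomal and oxidative phosphorylation scaling, which shifts that median by 0.79, 40 were enriched in migrated and 39 in non-migrated cells (2 lower), with 2 atypical, 6 desmosomal and 8 other protocadherin genes, and CDH5 turned positive (0.75). Unweighted limma gave 13 in migrated and 10 in non-migrated cells and 1 FAT or CELSR gene, and median-of-ratios scaling 1 such gene. A quasi-Poisson model gave 1 FAT or CELSR and 1 desmosomal gene. A prior count of 2 gave 2 atypical, 5 desmosomal and 7 other protocadherin genes, no filter 7 other protocadherins, and the stricter filter 1 lower FAT or CELSR gene. With no replicate block 10 were enriched in non-migrated cells, and no other count moved by over 1.5 times. Over all windows, 4 of 17 atypical windows were enriched, and 2 of 23 classical and 1 of 51 clustered windows lower. In the window with the most input reads CELSR3 was at -2.65. The cause was not tested. No member passed the test of the change between fractions under any of these settings.

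Leaving out 1 library at a time gave 15 to 38 enriched and 6 to 10 lower members, 7 to 34 and 5 to 8 in migrated cells, 1 to 34 and 2 to 8 in non-migrated cells, and 0 to 3 changed. Enriched counts ran from 6 to 13 for clustered, 4 to 10 for classical, 3 to 7 for other protocadherins, 1 to 4 for desmosomal, 0 to 2 for atypical, and 0 to 2 for FAT and CELSR genes. Lower counts ran from 1 to 3 for other protocadherins, 2 to 4 for atypical, and 1 to 3 for FAT and CELSR genes. Counts over all windows also moved with the library left out. Set 1 depth, with a median of 1 H3K9me3 read per window in migrated cells, limits every comparison within a fraction and the mean of both.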
